A study of Mus musculus with 8 samples.

Results

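The genes described here are 10 components of the TGF-beta and BMP signalling pathway, several of which act in its feedback control. The members are Smad3, inhibitory Smads Smad6 and Smad7, corepressors Ski and Skil, targets Id1, Id2 and Id3, and receptors Tgfbr1 and Bmpr2. Their regions were taken from 4 deposited lists of peaks in which RNA recovered with the m6A reader YTHDF3 was enriched over input RNA, 1 list for each of 2 normal and 2 starved replicates of mouse embryonic fibroblasts (MEFs). A peak belonged to a member when the deposited annotation named that gene. By this rule 98 of 87096 peaks belonged to the members, and they merged into 36 of 39979 regions, of which 12 were called in all 4 lists, out of 6531 such regions in the whole series.

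The MEFs were wild-type C57BL/6 cells from embryos at 13.5 days post-coitum, used at passages 5 to 6. Normal MEFs were kept in complete medium and starved MEFs spent 2 h in nutrient-deprived medium. In each replicate the RNA bound by endogenous YTHDF3 was immunoprecipitated (RNA immunoprecipitation, RIP; called IP below) and sequenced beside input RNA, which made 8 libraries. No library of a control antibody was analysed here, so enrichment is stated only against input. The labels do not say whether the replicates came from separate cultures or embryos, and p-values measure the spread between these libraries.

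TGF-beta and BMP ligands bind pairs of serine/threonine kinase receptors, which phosphorylate receptor-regulated Smads such as Smad3. These enter the nucleus with Smad4 and switch on, among other genes, their own inhibitors: Smad7 and Smad6 block the receptors, Ski and Skil repress Smad-driven transcription, and the Id proteins are helix-loop-helix inhibitors induced by BMP. YTHDF3 is a cytoplasmic protein that binds N6-methyladenosine in mRNA and is known to affect translation and decay of the transcripts it binds.

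The lists held between 8818619 and 19271667 IP reads and between 2507434 and 5157523 input reads inside peaks. Of 10 fibroblast marker genes 6 had a peak in any list and 1, Pdgfrb, had a region called in all 4 lists. Col3a1 had peaks in all 4 lists but no region called in more than 2. Of 9 markers of epithelium, endothelium and leukocytes only the endothelial Kdr had a peak, and it too had a region called in all 4 lists. Its 4 regions together held 29 to 89 IP reads and 0 to 5 input reads per library. The lists hold enriched windows only, so a marker or member without a peak may still have been expressed.

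The deposited names and the gene models did not always match. Of the 36 regions, 26 overlapped an exon of the member they were named for, and 11 of the 12 called in all 4 lists did. The other one, deposited under Smad7, lay in exons of Ctif on the opposite strand. Conversely, 7 regions on exons 2 to 9 of Smad3 were deposited under its neighbour Aagab and 12 regions on exons of Bmpr2 under Fam117b. HOMER, the annotation tool, assigns a peak to the nearest transcription start. Counted by exon in place of name, the members had 45 regions, of which 17 were called in all 4 lists. Id1 and Id3 had no peak in any list. Id2 had 2 regions, each in 1 list and with 38 and 40 IP reads, and both lay at the Kidins220 gene and not on an Id2 exon, so no value was obtained for the Id genes.

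**Figure D1:**
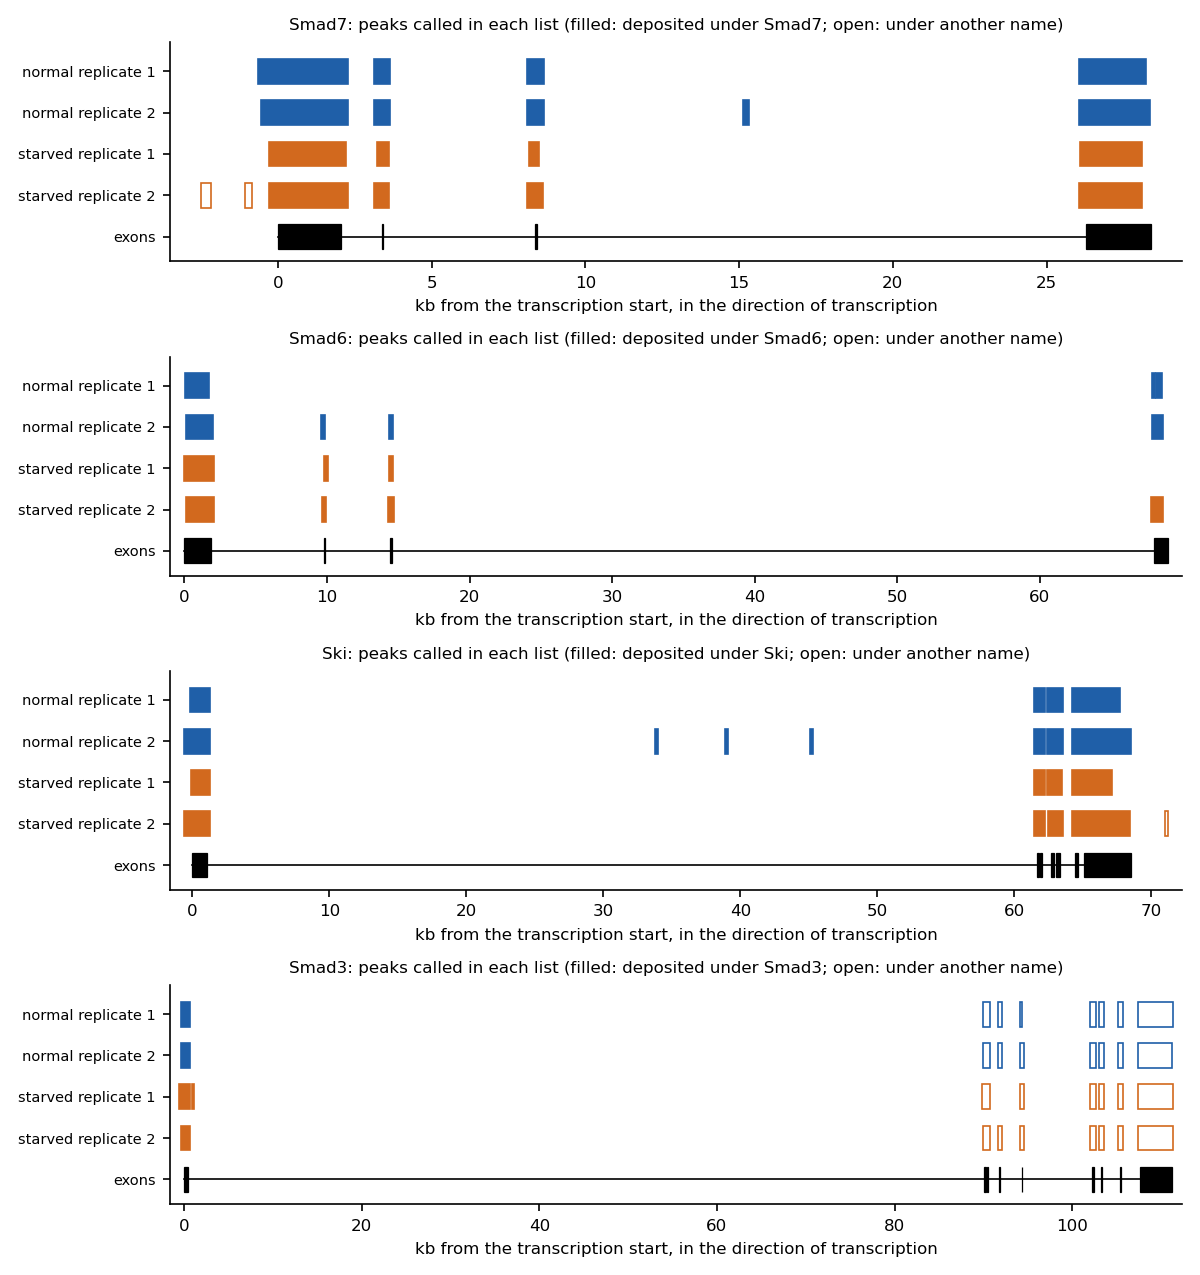
Peaks called in each of the 4 lists along Smad7, Smad6, Ski and Smad3, drawn to scale in kb from the transcription start. Filled boxes carry the name of the gene drawn and open boxes another name. Every exon of Smad7 and Ski had a peak in all 4 lists, and the downstream peaks of Smad3 are open because they were deposited under Aagab.

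Among the members with a region in all 4 lists, only Smad7, the inhibitory Smad that targets the TGF-beta receptor, had a called change. Members without such a region were not tested. The gene has 4 exons (mm10, chromosome 18, 75367529 to 75395935, plus strand), and each exon was covered by 1 region called in all 4 lists. IP reads per base fell about 4-fold in starved MEFs over all 4 exons, and the input reads per base fell by about the same amount. The ratio of IP to input showed no change that passed the test.

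The region on exon 1 (chr18:75366881-75369810, 2040 exonic bases, most of them 5′ UTR) held 11042 and 14140 IP reads in the normal libraries and 3239 and 4653 in the starved libraries. Scaled to library size and covered length (reads per kb of covered peak per 1000000 reads, called normalised reads per kb below), the normal libraries stood at 565 and 584 normalised reads per kb and the starved libraries at 105 and 148 (574.9 ± 13.5 against 126.9 ± 30.5, mean ± SD, n = 2 each). Both starved libraries lay far below both normal libraries. The log2 change (starved against normal) was -2.18 (SE 0.23), with an adjusted p of 0.0187 in edgeR's quasi-likelihood test over 6531 regions. A long non-coding gene, Gm20544, overlaps this exon on the other strand, and reads from the pair cannot be told apart because the use of strand in counting is not given in the sources used here.

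The input of exon 1 held 2385 and 3093 reads in normal and 458 and 648 in starved libraries, or 435 and 367 against 93.8 and 96.9 normalised reads per kb. The groups did not overlap, and the log2 change was -2.07 (SE 0.26, edgeR adjusted p = 0.00141). In bulk RNA, fewer cells with the transcript and less of it per cell cannot be told apart. The IP/input fold, the quotient of the 2 deposited read counts of a peak after the scaling by the authors, was 3.73 and 4.57 in the normal lists. In the starved lists it was 3.03 and 4.79, values that enclosed the normal ones. The log2 change of the ratio was -0.14, with a 95% interval from -0.54 to 0.26 (edgeR adjusted p = 0.999).

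The last exon of Smad7 (exon 4, chr18:75393581-75395910), which carries the end of the coding sequence and 1548 bases of 3′ UTR, gave 636 and 602 normalised IP reads per kb before and 111 and 151 after starvation. Its log2 change in IP was -2.24 (SE 0.23, edgeR adjusted p = 0.0158). The input went from 559 and 529 to 94.2 and 151 normalised reads per kb, a log2 change of -2.15 (SE 0.29, edgeR adjusted p = 0.00219). The 4 IP/input folds of this exon were nearly alike, at 3.27 in both normal libraries and 3.18 and 3.13 in the starved ones, and the log2 change of the ratio was -0.09 (95% interval -0.46 to 0.28).

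The short internal coding exons followed the same course with fewer reads. Their regions were mostly not exonic, with 54 exonic of 520 bases for exon 2 and 75 of 530 for exon 3. Their levels per kb of covered peak therefore do not compare with those of exons 1 and 4. Exon 2 had 142 and 127 normalised IP reads per kb in normal and 30.1 and 29.3 in starved MEFs (log2 change -2.18, SE 0.22, edgeR adjusted p = 0.0158). Its input, at 122 and 138 reads against 25 and 24, changed by -2.09 on the log2 scale (SE 0.45, edgeR adjusted p = 0.0403), a call that was lost in 4 of 10 alternatives. Exon 3 had 132 and 117 normalised IP reads per kb against 29.7 and 31.7 (log2 change -2.02, SE 0.22, edgeR adjusted p = 0.0191). Its input of 83 and 172 reads in normal and 23 and 31 in starved libraries gave a log2 difference of -1.74 (SE 0.43) that did not pass the test (edgeR adjusted p = 0.0842), though it passed in 3 of 10 alternatives.

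In total 4 of the 12 member regions were called lower and 0 higher in IP reads per base, and 3 were called lower and 0 higher in input reads per base. All the called regions were exons of the 1 transcript Smad7, so they are not independent of each other. Over all 6531 regions 0.75% were called lower and 0.0919% higher in IP, and 0.995% lower and 0.23% higher in input. The exons of Smad7 ranked 15, 17, 18 and 20 from the lowest IP change. When whole reads were compared without the covered length, the calls were lost (edgeR adjusted p from 0.208 to 0.255 for IP) while the log2 change in IP stayed between -2.34 and -2.40. In that comparison no region of the series was called.

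Read against all regions called in all 4 lists, the IP level of Smad7 exon 1 went from above 98.1% of regions in normal MEFs to above 84.7% in starved MEFs, and that of exon 4 from 98.4% to 85.4%. Exons 2 and 3 went from above 84.5% and 83.1% of regions to above 24.8% and 26.4%. These levels are per kb of covered peak, most of which was not exonic in the regions on exons 2 and 3. Both starved lists still held a called peak on every Smad7 exon.

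**Figure D2:**
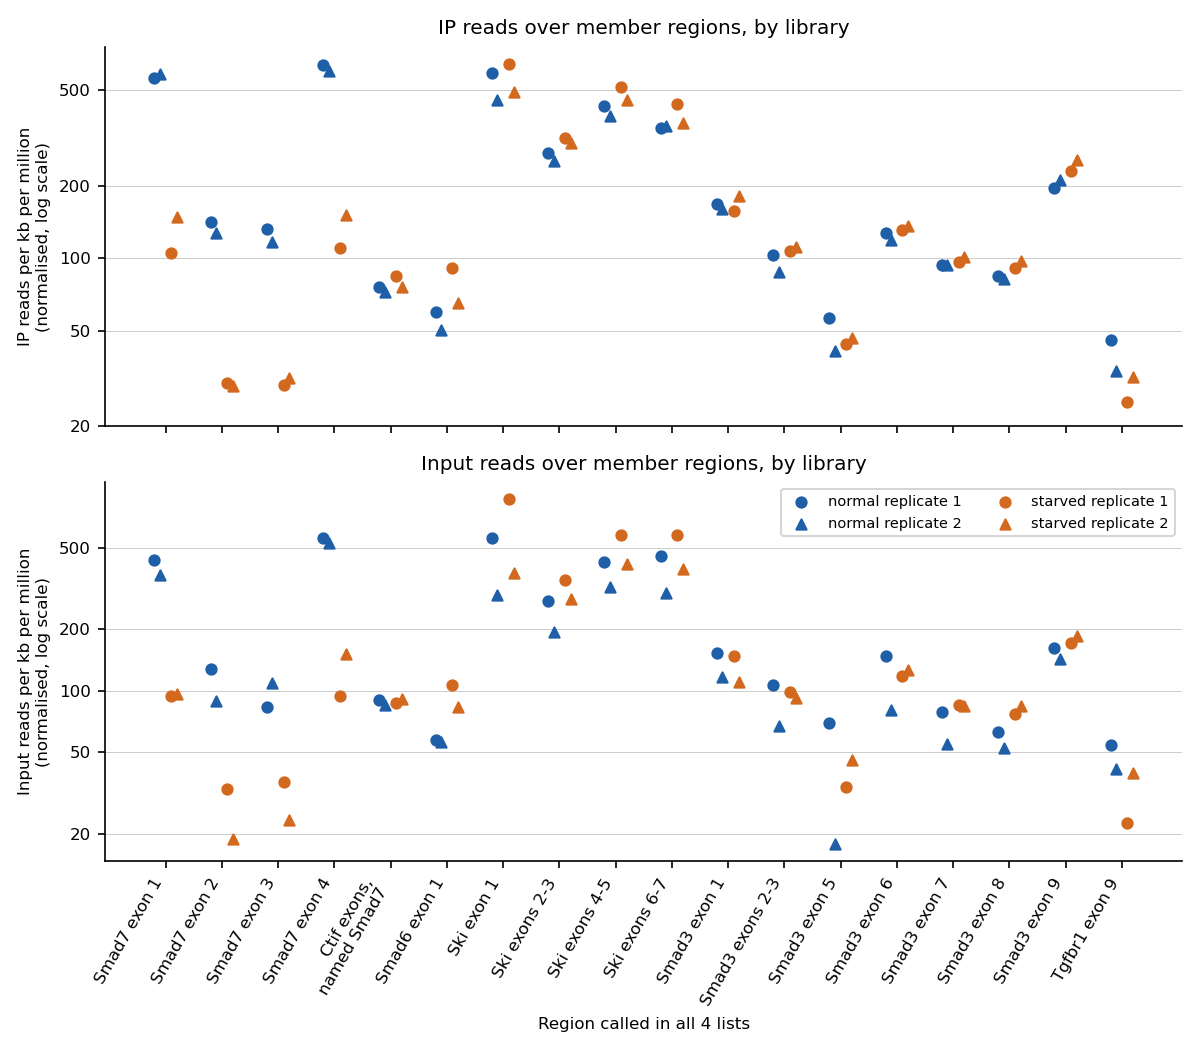
Normalised IP (top) and input (bottom) reads per kb, on log axes, in each of the 4 replicates, over the 12 regions named for a member and the 6 Smad3 exon regions deposited under Aagab. The 4 Smad7 exons are the only regions where the orange starved points lie far below the blue normal points in both panels.

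The Ctif exons deposited under Smad7 (4410 bases) served as a neighbour with the same name. Their IP level was 75.8 and 72.1 normalised reads per kb in normal and 84.1 and 76.0 in starved MEFs, with a log2 difference of 0.11 (95% interval -0.36 to 0.58). The input differed by 0.02 (95% interval -0.55 to 0.59). This region covers another transcript, and its values say nothing of Smad7.

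Smad6, the inhibitory Smad that acts mainly on BMP receptors, had a region on each of its 4 exons, of which only exon 1 was called in all 4 lists (chr9:64020001-64022060, minus strand, 1855 exonic bases). IP levels there were 59.7 and 50.1 normalised reads per kb in normal and 91.0 and 65.0 in starved MEFs. Input levels were 57.2 and 55.9 against 107 and 83.2. Both starved libraries lay above both normal libraries in IP and in input, but the differences did not pass the test: the log2 difference was 0.51 in IP (SE 0.25, edgeR adjusted p = 0.582) and 0.75 in input (SE 0.30, edgeR adjusted p = 0.481). The input difference passed in 1 of 10 alternatives and the IP difference in 0. The IP/input fold was 3.0 and 2.57 in normal and 2.31 and 2.44 in starved MEFs, with a log2 difference of the ratio of -0.25 (95% interval -0.69 to 0.19). The smaller regions on exons 2, 3 and 4 were each called in 3 lists, with 39 to 701 IP reads.

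Ski, a corepressor that binds the Smad complex on DNA, had the broadest coverage of the members. All of its 7 exons lay in 4 regions called in all 4 lists (mm10, chromosome 4, 155154075 to 155222592, minus strand). Among regions deposited under a member's name, and leaving Smad7 aside, those with the highest mean IP/input folds that held a GGACT site, a form of the m6A consensus, were of Ski, and the sites are shown because m6A is the mark that YTHDF3 binds. The capitals mark GGACT, with 10 bases on either side, 5′ to 3′ on the transcribed strand of the mm10 genome. The first lies in the coding part of exon 1 at chr4:155221640-155221664, the second in the 3′ UTR at chr4:155155854-155155878, and the last in the 3′ UTR at chr4:155155265-155155289.
Ski exon 1: tgctgagccaGGACTacacgggcaa
Ski exon 7, upstream site: acgacctcaaGGACTgtggcctgca
Ski exon 7, downstream site: tatgcagcagGGACTcttttcccca
Sites were searched only on the strand of the mRNA, and no measurement of methylation was made on them here.

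Exon 1 of Ski had 592 and 456 normalised IP reads per kb in normal and 645 and 492 in starved MEFs, and 559 and 293 against 864 and 378 in input. In both measures the groups overlapped and replicate 1 was above replicate 2 in each condition. The covered length of this region was shorter in replicate 1, at 1420 bases against 1890 in normal lists and 1370 against 1860 in starved lists. These levels per kb depend on it. The log2 difference was 0.12 in IP (95% interval -0.43 to 0.67) and 0.55 in input (95% interval -0.28 to 1.37). Its IP/input fold was 3.04 and 4.47 in normal and 2.02 and 4.06 in starved MEFs, lower in the starved library of each replicate, with a log2 difference of the ratio of -0.40 (SE 0.23, edgeR adjusted p = 0.999).

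The other 3 regions of Ski behaved alike. Exons 2 to 3 had 274 and 255 normalised IP reads per kb in normal against 317 and 303 in starved MEFs, and exons 4 to 5 had 430 and 392 against 517 and 458. The last exons 6 to 7, which hold 3263 bases of 3′ UTR, had 348 and 357 against 439 and 365. In these regions both starved libraries lay above both normal ones, by log2 differences in IP of 0.19 to 0.25 that did not pass the test. In input, exons 2 to 3 had 275 and 193 normalised reads per kb in normal against 350 and 282 in starved libraries. Exons 4 to 5 had 428 and 321 against 581 and 418 in input, and exons 6 to 7 had 457 and 299 against 577 and 394. Here the groups overlapped in the latter pair of regions, where normal replicate 1 stood above starved replicate 2. Input differences ran from 0.36 to 0.43 and those of the ratio from -0.23 to -0.18, none of which passed the test either. The covered length of the last region varied from 2920 to 4330 bases among lists.

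Skil (SnoN), a relative of Ski that is itself degraded and reinduced during TGF-beta signalling, had 6 regions, none in all 4 lists, so no test was made. Its longest region lay on the last exon (2610 bases of 3′ UTR) and was called in both normal lists and in starved replicate 1. There it held 95.4 and 130 normalised IP reads per kb in normal and 60.7 in the starved library, with input at 125 and 164 against 70.2. The covered length differed, at 1830 and 1820 bases in normal lists and 2690 in the starved list, and the levels per kb depend on it. The fold was 2.19 and 2.28 in normal and 2.34 in starved MEFs. A region on the first exon, in normal replicate 2 and both starved lists, had only 28 to 119 IP reads over 3 to 14 input reads, and the other 4 regions were called in 1 list each.

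Smad3, the signal transducer that the inhibitory Smads oppose, had 1 region by name in all 4 lists, on exon 1 (chr9:63757251-63758520, minus strand). It held 169 and 161 normalised IP reads per kb in normal and 158 and 182 in starved MEFs, and the groups overlapped. So did the input, at 153 and 117 normalised reads per kb in normal and 147 and 110 in starved libraries. The log2 difference was 0.05 in IP (95% interval -0.44 to 0.53), -0.07 in input (95% interval -0.74 to 0.60) and 0.10 in the ratio (95% interval -0.38 to 0.58). The 6 downstream regions in all 4 lists that were deposited under Aagab covered exons 2 to 3 and 5 to 9. The largest, exon 9 with 3498 bases of 3′ UTR, had 197 and 211 normalised IP reads per kb in normal and 231 and 256 in starved MEFs, with a log2 difference of 0.25 (SE 0.19, edgeR adjusted p = 0.733). Its input was 162 and 143 normalised reads per kb in normal and 170 and 185 in starved libraries.

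The regions on the internal coding exons of Smad3 stood lower per kb of covered peak. Most of their bases were not exonic, with 145 of 590 exonic for exon 8 and 138 of 590 for exon 7. The region on exon 9 had 3619 of 3960, so these levels do not compare the exons themselves. Exon 8 had 84.5 and 82.2 normalised IP reads per kb in normal and 91.2 and 97.3 in starved libraries, with input at 62.8 and 52.6 against 77.1 and 84.5. Exon 7 had 94.0 and 93.7 against 96.6 and 101.2 in IP and 78.6 and 55.0 against 85.1 and 84.3 in input. In both exons the starved libraries lay slightly above the normal ones in either measure. Exon 6 had 127 and 119 normalised IP reads per kb in normal against 131 and 137 in starved libraries, and its input of 148 and 80.4 enclosed the starved values of 118 and 126. Exons 2 to 3 had 103 and 87.9 against 107 and 112 in IP, and their input of 106 and 67.4 likewise enclosed the starved 98.7 and 92.6. Exon 5, the shortest with 51 exonic bases, had 56.3 and 40.9 against 44.1 and 46.8 in IP and 69.5 and 17.8 against 33.9 and 45.8 in input, so the groups overlapped. Over the 7 Smad3 regions the log2 differences ran from -0.08 to 0.25 in IP, from -0.07 to 0.49 in input and from -0.38 to 0.10 in the ratio, and none passed the test.

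Among the receptors, Tgfbr1, the type I receptor for TGF-beta, had 5 regions, of which 1 in the 3′ UTR of exon 9 was called in all 4 lists (chr4:47413261-47414410). It had 45.8 and 34.1 normalised IP reads per kb in normal and 25.1 and 32.1 in starved MEFs. Both starved libraries were below both normal ones, but the log2 difference of -0.48 did not pass the test (SE 0.28, edgeR adjusted p = 0.662). The called part of this region was shorter in starved lists, at 390 and 310 bases against 600 and 630. The input was 54.3 and 41.5 normalised reads per kb in normal and 22.4 and 39.5 in starved libraries. The input difference was -0.62 (95% interval -1.64 to 0.41) and that of the ratio 0.15 (95% interval -0.52 to 0.82).

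Bmpr2, the type II receptor for BMP, had no region in all 4 lists. Its exon 1 was called in both normal lists and in starved replicate 2, with 357, 366 and 328 normalised IP reads per kb and IP/input folds of 2.08, 3.68 and 3.58. Of its 15 regions by exon, 12 carried the name Fam117b, and these held 19 to 898 IP reads per library in the lists that called them.

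**Figure D3:**
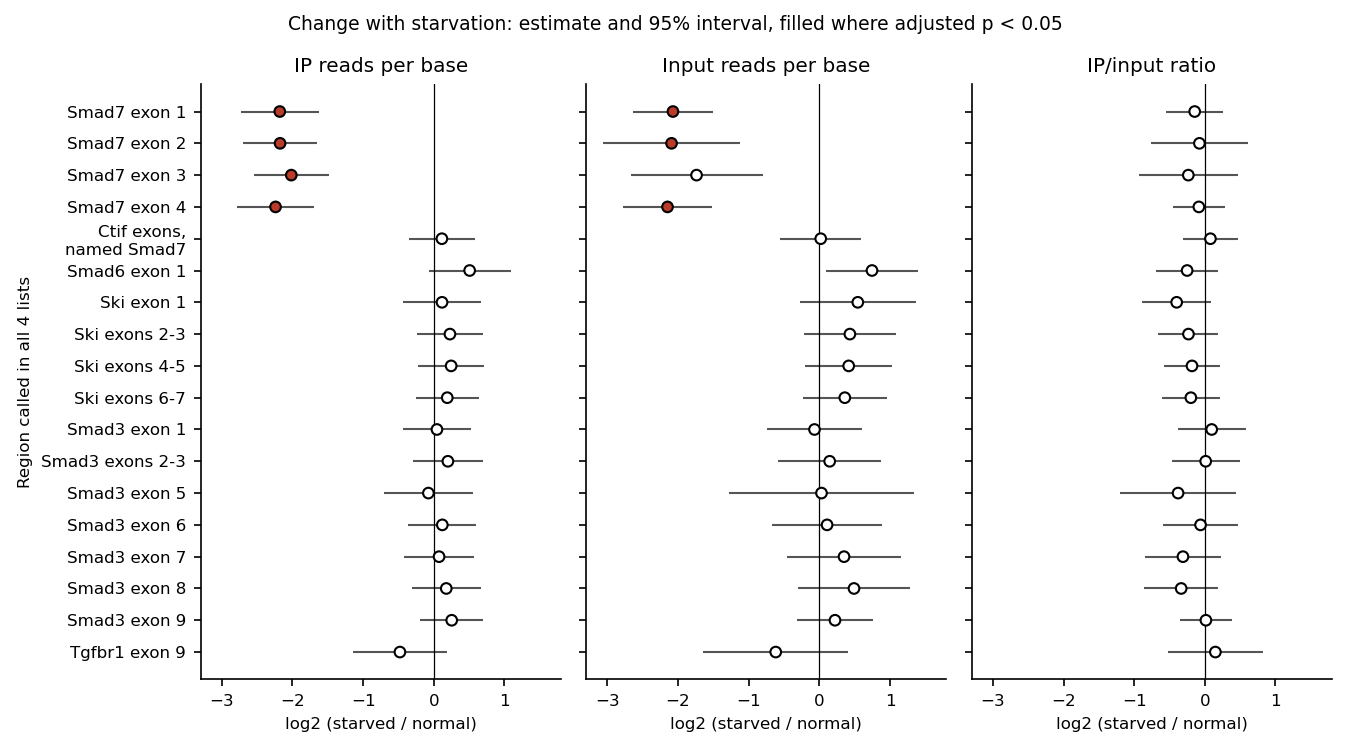
Log2 change with starvation in IP reads per base, input reads per base and their ratio for the 12 regions named for a member and the 6 Smad3 regions deposited under Aagab, with 95% intervals from edgeR (2 replicates per condition). Filled points passed an adjusted p of 0.05, and these are the Smad7 exons in IP and 3 of its 4 exons in input. In the ratio every interval spans 0.

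The IP/input ratio is the measure of enrichment with YTHDF3, and 0 of the 12 member regions were called as changed in it by edgeR. None had an unadjusted p under 0.05, and DESeq2 called 0 as well. Over all regions 0.0153% were called higher and 0.0% lower, which is 1 region of 6531. The median log2 difference was -0.16 over the 12 regions, from -0.40 to 0.15, and -0.01 over all regions. As a description without a test, 0 of the 12 regions changed their IP/input fold by 1.8 or more in the same direction in both replicates, where 0.23% of all regions rose and 0.322% fell by that rule. Among these 12 the widest values came from exon 3 of Smad7, whose fold changed by -1.02 on the log2 scale in replicate 1 and by 0.46 in replicate 2. Its called length dropped from 530 to 330 bases in replicate 1 and from 530 to 510 in replicate 2. Smad3 exon 5, deposited under Aagab, varied more, at 0.59 in replicate 1 and -1.05 in replicate 2, and its called length went from 200 to 500 bases in replicate 1.

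The folds themselves varied among the members. Averaged over the 4 lists they ranged from 2.51 for the Ctif region to 4.03 for Smad7 exon 1, against a median of 3.06 over 6531 regions. Smad7 exons 1 to 4 stood above 83.8%, 75.5%, 71.1% and 57.7% of regions in mean fold, Smad3 exon 1 above 79.1%, and the Tgfbr1 region and Ski exons 6 to 7 above 18.3% and 22.3%.

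**Figure D4:**
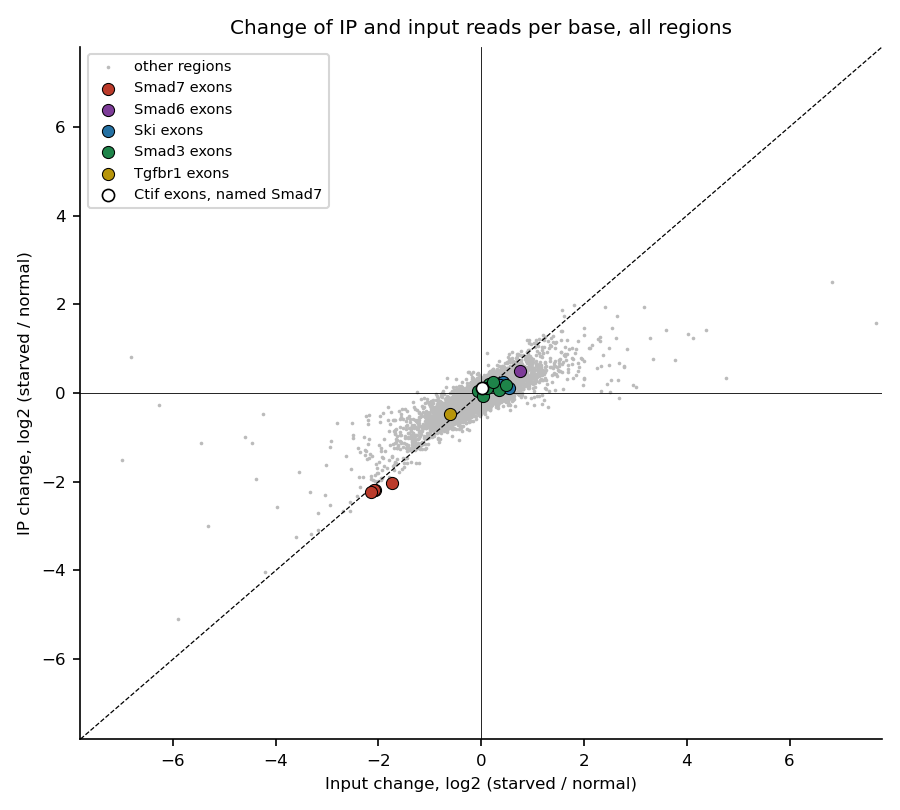
Change in IP against change in input (log2, starved against normal) for all 6531 regions called in all 4 lists, with the member regions coloured. The 4 Smad7 exons lie near the dashed line of equal change, at input changes of -2.15 to -1.74 and IP changes of -2.24 to -2.02, and the other members lie near the centre.

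The regions whose pattern over the 8 libraries was most like that of Smad7 exon 2, the member region with the smallest p in IP, were sought by Euclidean distance over log2 normalised reads per kb after centring (4 IP and 4 input values, 6345 regions). The nearest regions of other genes were in Enc1 (distance 0.621), in a region on exons of 9930014A18Rik and Fam84b (0.673) and in Ptger4, a prostaglandin E2 receptor (0.712). The other Smad7 exons stood at distances of 0.779 to 1.18. Enc1 had 1659 and 2375 IP reads in normal and 631 and 949 in starved libraries, with a log2 change in IP of -1.93.

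Of 59 other genes of the pathway (60 symbols, since Ctgf and Ccn2 name the same gene), 44 had a peak and 14 had a region in all 4 lists, with 32 regions in all. Of these regions 24 lay on an exon of the gene they were named for, in 11 genes, and 8 did not. In IP and in the ratio 0 of the 32 were called, and in input 2 were called lower and 0 higher. Medians over the 32 regions were -0.18 in IP, -0.24 in input and -0.02 in the ratio, against -0.10, -0.08 and -0.01 over all regions. By role, regions in all 4 lists on an exon of the named gene were found for 4 of 14 ligands, 1 of 10 receptors, 2 of 5 Smads, 1 of 19 inhibitors and modulators, and 3 of 11 targets. Both input calls were in Thbs1, an activator of latent TGF-beta, with log2 changes of -1.09 and -0.83 (edgeR adjusted p = 0.0159 and 0.0326). Its IP differences of -1.15 and -0.89 did not pass the test in edgeR (adjusted p = 0.153 and 0.0754), but both were called by DESeq2 and in 4 of 9 edgeR alternatives. The Acvr1 receptor had 6 regions with IP differences of -0.40 to -0.10, none of them called.

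GGACT was counted in the exonic bases of the 11 regions named for a member that lay on its exons. There were 11 sites in 13.3 kb, or 0.827 per kb, against 1.22 per kb over the 6460 exonic regions of the series. A site was present in 6 of the 11 member regions (54.5%) and in 49.2% of all regions. The shorter GGAC, which contains every GGACT site, stood at 4.21 per kb in members and 4.72 per kb in all regions. Smad7 had 4 GGACT sites, 2 in exon 1 and 2 in exon 4, Ski had 4, Smad6 had 2 and Tgfbr1 had 1, while Smad3 exon 1 had none. Smad3 exon 9, deposited under Aagab, held 2 sites at a mean IP/input fold of 3.93. In the 200 genomic bases at the centre of a region, introns included, GGACT was present in 1 of the 11 member regions (9.09%) and in 21.8% of all regions. That member region was Ski exons 4 to 5, whose exonic bases held 0 GGACT sites, so this match is not among the 11 sites above. ATTTA, the core of AU-rich elements that shorten the life of many induced mRNAs, occurred 14 times in the member regions (1.05 per kb, against 0.669 per kb in all regions), 10 times in Ski and 4 times in Smad7, and all of the Smad7 matches were in exon 4. By share the order was the other way, with ATTTA in 18.2% of the member regions and 26.7% of all regions.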

How the data were processed

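The RIP-seq libraries of normal and starved MEFs were processed by the authors, who trimmed reads, aligned them to mm10 with TopHat2 2.0.13 (per the submitters' processing notes), called enriched windows of IP over input with diffReps for each replicate and annotated them with HOMER. The deposited read counts of each peak are scaled between IP and input within a list, so the columns are a signal. No list names its input library, and the one with the matching condition and replicate number was assumed. Whole reads were recovered by dividing the deposited values by the size of 1 read, with 100.0% of values within 0.1 of a whole number. Peaks with a deposited p-value under 0.0001 and an IP/input fold of at least 2 were kept, 87096 in all. The deposited log2 fold changes, adjusted p-values and window statistics hold the IP/input comparisons of the authors and were not used.

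Peaks of the 4 lists were merged where they overlapped by at least 1 base. Reads were summed per region and list, and an input under 3 reads was set to 3 for the fold. Normalised reads per kb are reads per kb of covered peak per 1000000 reads, with TMM library sizes. Tests used edgeR 4.0.16 (quasi-likelihood, Benjamini-Hochberg adjustment over 6531 regions) in R 4.3.3. IP and input were fitted separately with an offset for covered length. The ratio was tested in 1 fit of all 8 libraries, with a term for the IP and input pair of each list. These main fits held no term for the replicate number. Fits of the same kind were run on simulated counts in which 200 of 6531 regions were changed 2.5-fold. They recovered 30.0% of the changed regions in the ratio, 95.0% in IP and 78.0% in input. The spread of these counts was set and not estimated from the libraries. Covered length was held equal in every region and list, unlike in the main fits of IP and input. The shares recovered are therefore no measure of the sensitivity of the main fits. DESeq2 1.42.0 and the other settings given in the closing section were alternatives. With 2 against 2 replicates an exact permutation test cannot go below 0.05. Intervals cover the model's error, and regions are restricted to those enriched in every list, so a transcript that lost its peaks is outside the tests.

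Exons came from GENCODE M21 and bases from GRCm38, whose coordinates are those of mm10. A blastn 2.17.0 search of the members' exonic regions found no stretch at 95% identity or above in transcripts of other genes. The members, the pathway and marker lists and the cutoffs were chosen with earlier results of these data known. All 10 members and their regions were accounted for, values per library were given for IP and input of regions in all 4 lists on a member's exon, and the 3 nearest patterns and up to 3 sites were named by the rules stated beside them.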

Additional observations from a re-analysis of the deposited data

How the results depend on the processing

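The 12 tested member regions represent 5 genes, and 2 replicates per condition leave wide intervals. Those of the ratio reach -0.93 on the log2 scale (Smad7 exon 3) among the 12 and -1.20 in Smad3 exon 5, and changes within the intervals were not detectable at this depth. Input reads were few for Smad7 exons 2 and 3 (23 to 172). Whole reads without the covered length gave 0 calls in IP and 0 in input. A peak fold of at least 4 left 0 member regions in all 4 lists, so none could be tested. Replicate 1 alone gave 1 region lower by 1.8-fold (Smad7 exon 3), and replicate 2 alone gave 0. Leaving out 1 library at a time gave 4 calls lower in IP and 2 to 3 in input. Exon overlap in place of the deposited name, chosen after seeing the data, gave 17 regions with the same counts of calls. The 200 genomic bases at the centre of each member region, introns included, held 0.455 GGACT per kb, from 1 site that was not in the exonic count. Counting GGAC gave 4.21 per kb in the exonic bases of whole regions.

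The labels number the replicates but do not say what a number marks. With the replicate block, 5 member regions were called in input, 4 lower and 1 higher (Smad6 exon 1, log2 change 0.73, edgeR adjusted p = 0.0484), and 4 in IP. Deviations of same-numbered samples from their group means correlated at 0.278, 0.451 and 0.312 across regions for the ratio, IP and input. Over all regions the calls in IP rose from 6 higher and 49 lower to 84 and 191 with the block and to 37 and 131 in DESeq2, and in input from 15 and 65 to 92 and 202 with the block and to 30 and 98 in DESeq2.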
